A study of Sus scrofa with 6 samples.

Results

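The Notch receptors and the transcription factor HES4 were examined in whole pig embryos of 2 VRTN genotypes. Members were the rows of the deposited transcript table whose best protein match is described as a neurogenic locus notch homolog protein, and the row described as transcription factor HES-4. This gave 8 of 20523 rows: 3 for NOTCH2, 3 for NOTCH3, 1 for NOTCH4 and 1 for HES4. No row carries that description for NOTCH1, so NOTCH1 was not analysed here. The 8 rows were gathered because NOTCH2 and HES4 were already known to lie higher in the mutant embryos of this series. Their differences between genotypes are therefore given as a description, without a test.

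The embryos were Large White pigs at 17.5 to 18 days post coitum, whole embryo in each case. Of these, 3 were wild type (qq, called WT here) and 3 were mutants (QQ), homozygous for both quantitative trait nucleotides of VRTN, a gene tied to the number of thoracic vertebrae. Genotype was read from the extra-embryonic tissue of each embryo, and no other allele or treatment is named in the labels. The labels give neither litter nor dam, so each test measures the spread between these 6 embryos only. The study asked which genes differ between these genotypes while somites, the precursors of the vertebrae, are forming.

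Notch receptors are single-pass membrane proteins with a long extracellular chain of EGF-like repeats. Binding of a Delta or Jagged ligand on a neighbouring cell leads to cleavage by an ADAM protease and then by gamma-secretase, which frees the intracellular domain. That domain enters the nucleus, joins the DNA-binding protein RBPJ and a Mastermind coactivator, and turns on HES and HEY repressors. In the presomitic mesoderm this pathway is part of the oscillating clock that sets somite boundaries. It also acts in neural progenitors and blood vessels, and NOTCH4 is best known from endothelium, NOTCH3 from vascular smooth muscle and pericytes.

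Libraries held 12.2 to 13.5 M (mega) uniquely mapped reads. WT replicate 3 stood apart: on the first principal component (56.0% of the variance) it lay at -64.1 and the other libraries between -9.75 and 31.0. Long transcripts were low in it, with a median deviation of -0.22 (log2, from the mean of the 6 libraries) over 1306 tested rows of at least 5000 bp, and of 0.06 over 5030 rows under 1500 bp. It was the lowest library in 34.8% of the 13957 tested rows, and in 55.3% of those of at least 5000 bp. The values of the members are therefore given with and without it. Over all tested rows, edgeR's quasi-likelihood test with Benjamini-Hochberg adjustment called 0% between genotypes at an adjusted p under 0.05. Without adjustment 2837 rows, or 20.3%, had a p under 0.05, of which 1540 were higher and 1297 lower in QQ embryos. That split was 2084 and 585 when libraries were scaled by their totals alone, and 1256 and 1827 when each library's trend with transcript length was removed. DESeq2 called 111 rows, or 0.795%, and none of the 8 members was among them. Without the expression filter it called 122 of 20523 rows, or 0.594%, and then 1 member, the 1388 bp row of NOTCH2, so that call depends on the filter.

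NOTCH2, a broadly expressed receptor, was higher in each QQ library than in each WT library. Its longest row (ENSSSCT00000007349, 8436 bp) stood at 23.0, 19.9 and 11.8 RPKM (reads scaled by transcript length and library total) in WT replicates 1 to 3, and at 26.4, 30.8 and 32.1 RPKM in QQ replicates 1 to 3. WT replicate 3 was far below the rest and the 3 QQ embryos lay close together. WT embryos averaged 18.2 ± 5.76 RPKM and QQ embryos 29.8 ± 3.00 RPKM (SD, n = 3 each). The log2 fold change was 0.62 ± 0.20 (SE, edgeR). Without WT replicate 3 the log2 fold change was 0.40 ± 0.11, and with the length trend removed from all 6 libraries it was 0.37 ± 0.14. Counts ran from 1338 to 3308 reads per library, so counting error was small beside the difference between WT embryos. Whole embryos were sequenced, so more NOTCH2-expressing cells and more NOTCH2 RNA per cell cannot be told apart.

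The shorter NOTCH2 rows differed more between embryos than the longest row. The 1388 bp row (ENSSSCT00000024449) held 129, 141 and 36 reads in WT replicates 1 to 3, against 197, 316 and 293 reads in QQ replicates 1 to 3. The groups did not overlap, and WT replicate 3 was again far the lowest: 0.444% of tested rows deviated further below their own mean in that library. The log2 fold change was 1.32 ± 0.41, and 0.91 ± 0.21 without WT replicate 3. The 1720 bp row (ENSSSCT00000031447) held 62, 51 and 21 reads in WT and 63, 106 and 92 reads in QQ embryos. Its groups overlapped, since per length WT replicate 1 lay above QQ replicate 1. The log2 fold change was 0.88 ± 0.37 with all libraries and 0.54 ± 0.26 without WT replicate 3. Both short rows have the same pig NOTCH2-like protein as best match, and the longest row matches NOTCH2 of the killer whale.

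Coverage separated the rows as well. Reads covered 81.1 to 82.3% of the longest NOTCH2 row in the 6 libraries, and 48.3 to 60.95% of the 1388 bp row. In the 1720 bp row they covered 18.0 to 18.4%, or 310 to 316 bases, in every library, although its reads ranged from 21 to 106. RPKM divides by the whole row, so it understates the level over the covered stretch of such a row. Scaled by covered length instead of row length, the mean was 29.4 in the longest row, 18.1 in the 1388 bp row and 16.6 in the 1720 bp row. The longest row held 88.6 to 95.9% of all reads given to NOTCH2.

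The balance between short and long NOTCH2 rows shifted with the library. The log2 ratio of reads per base, 1388 bp row over longest row, was -1.62, -1.32 and -2.59 in WT replicates 1 to 3, against -1.32, -0.77 and -0.89 in QQ replicates 1 to 3. It was lowest in WT replicate 3 and highest in QQ replicates 2 and 3, with WT replicate 2 and QQ replicate 1 at the same level. The mean difference between genotypes was 0.85, and 0.48 without WT replicate 3. For the 1720 bp row the mean difference was 0.32, and 0.11 without WT replicate 3. A ratio within a library shows unequal change of the rows and does not say which of them changed.

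**Figure D1:**
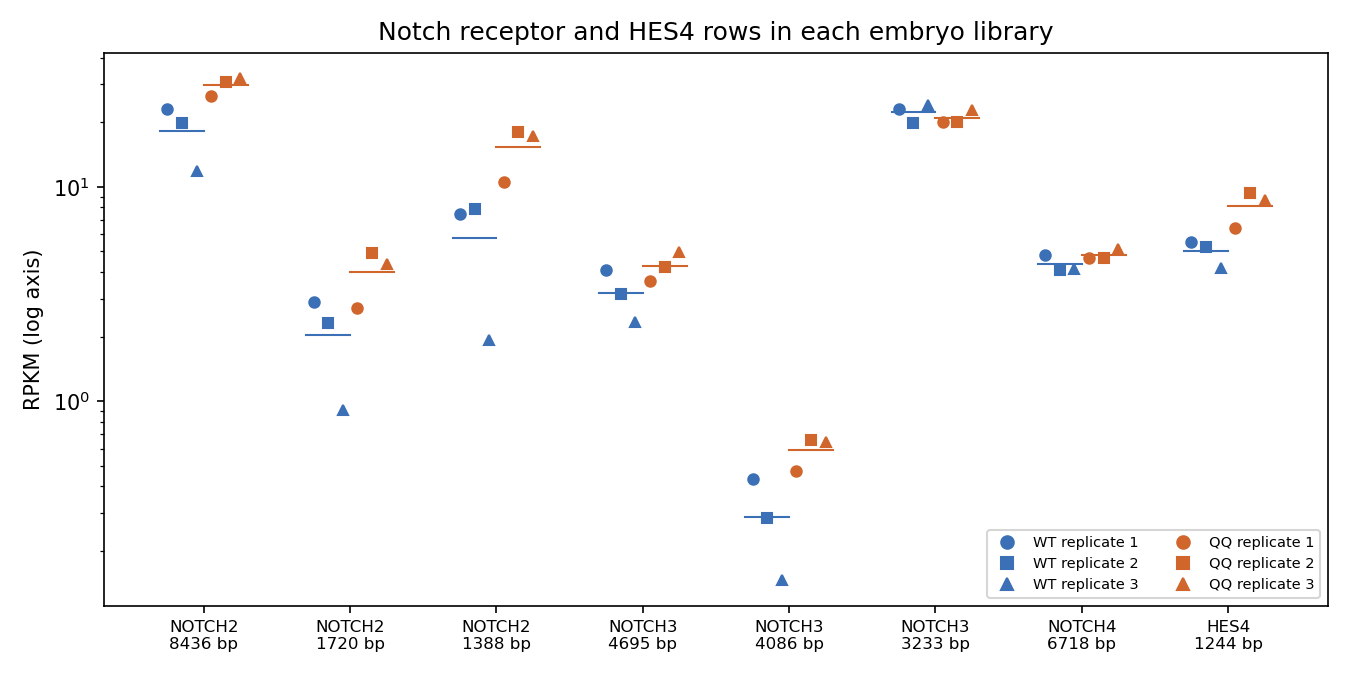
RPKM (log axis) of the 8 rows in the 6 libraries, blue for WT and orange for QQ embryos; marker shape gives the replicate and short lines the group means. WT replicate 3 (blue triangle) is lowest in 6 rows, and the 3233 bp NOTCH3 row is the one in which it is highest.

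NOTCH3, the receptor of vascular smooth muscle and pericytes, gave rows that pointed in opposite directions. The row with most of its reads (ENSSSCT00000024966, 3233 bp) stood at 23.0, 19.8 and 24.0 RPKM in WT replicates 1 to 3, against 20.0, 20.0 and 22.8 RPKM in QQ replicates 1 to 3. The groups overlapped, and here WT replicate 3 was the highest library. The log2 fold change was -0.19 ± 0.12, and -0.10 ± 0.11 without WT replicate 3. This row was covered over 97.7 to 98.8% of its length and took 74.0 to 87.1% of all reads given to NOTCH3.

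The longer NOTCH3 rows held fewer reads over small stretches. The 4695 bp row (ENSSSCT00000029966) stood at 4.11, 3.17 and 2.33 RPKM in WT and at 3.62, 4.20 and 4.96 RPKM in QQ embryos. The groups overlapped, the log2 fold change was 0.32 ± 0.21, and it was 0.15 ± 0.17 without WT replicate 3 and 0.52 ± 0.21 without WT replicate 1. Reads lay over 25.9 to 27.7% of this row, or 1216 to 1301 bases. The 4086 bp row (ENSSSCT00000025522) held 22, 15 and 8 reads in WT and 26, 34 and 32 reads in QQ embryos, over at most 171 bases. Its groups did not overlap, the log2 fold change was 0.95 ± 0.36, and without WT replicate 3 it was 0.64 ± 0.32. At so few reads the value moved with the setting, from 0.31 on log2(RPKM + 1) to 1.34 without WT replicate 1. Both rows have the same bovine NOTCH3-like protein as best match, and the 3233 bp row matches NOTCH3 of the cat.

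Set against the 4695 bp row, the 3233 bp row was relatively more abundant in WT replicate 3 than anywhere else. The log2 ratio of reads per base was 2.48, 2.64 and 3.36 in WT replicates 1 to 3, against 2.46, 2.25 and 2.20 in QQ replicates 1 to 3. All 3 QQ libraries lay below all 3 WT libraries, although WT replicate 1 and QQ replicate 1 were almost level. The mean difference was -0.52, and -0.25 without WT replicate 3. For the 4086 bp row over the 4695 bp row it was 0.69, and 0.49 without WT replicate 3. All ratios between rows were taken after adding 0.5 reads to each count. With 5 reads added, the mean difference for the 4086 bp row was 0.48, and 0.38 without WT replicate 3. The other pairs then had 0.79 (1388 bp), 0.23 (1720 bp) and -0.51 (3233 bp).

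**Figure D2:**
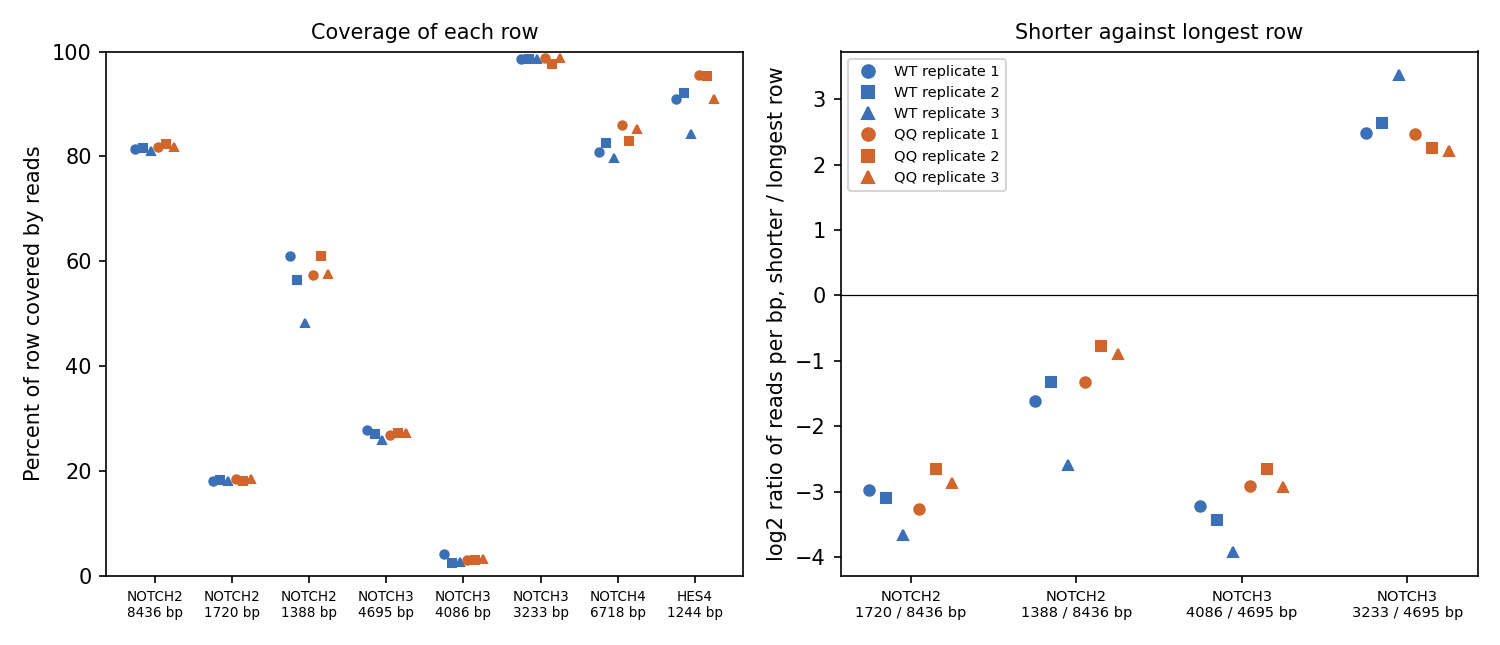
Left, percent of each row covered by reads in each library. Right, log2 ratio of reads per base of each shorter row to the longest row of the same receptor; coverage of the 1720 bp and 4695 bp rows is nearly the same in all libraries, that of the 1388 bp row is lowest in WT replicate 3, and WT replicate 3 (blue triangle) has the extreme ratio in each of the 4 pairs.

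NOTCH4, best known from endothelium, differed little between embryos. Its row (ENSSSCT00000001593, 6718 bp) stood at 4.81, 4.07 and 4.13 RPKM in WT replicates 1 to 3, against 4.66, 4.63 and 5.13 RPKM in QQ replicates 1 to 3. The groups overlapped and WT replicate 3 was not the lowest library. The log2 fold change was 0.05 ± 0.13, 0.04 ± 0.12 without WT replicate 3 and -0.16 ± 0.14 with the length trend removed, so its sign was not fixed. Although it is the second longest of the 8 rows, it was not low in WT replicate 3 as NOTCH2 was: it lay at -0.04 (log2) from its mean there.

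HES4, a basic helix-loop-helix repressor of the hairy and enhancer of split family and a target of Notch, was higher in each QQ library than in each WT library. Its row (ENSSSCT00000024059, 1244 bp) stood at 5.53, 5.26 and 4.18 RPKM in WT replicates 1 to 3, against 6.44, 9.39 and 8.63 RPKM in QQ replicates 1 to 3. WT replicate 3 was lowest, and QQ replicate 1 lay nearer to the WT libraries than to the other QQ libraries. WT embryos averaged 4.99 ± 0.713 RPKM and QQ embryos 8.15 ± 1.53 RPKM (SD, n = 3 each). The log2 fold change was 0.61 ± 0.20. Unlike the longest NOTCH2 row, it moved little when WT replicate 3 was left out (0.52 ± 0.19) or the length trend removed (0.60 ± 0.20). It held 70 to 147 reads per library, and reads covered 84.3 to 95.4% of it.

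Of the 8 rows, all of which passed the expression filter, 7 were on average higher and 1 lower in QQ embryos. QQ lay wholly above WT in 4 of them, the 8436 bp and 1388 bp rows of NOTCH2, the 4086 bp row of NOTCH3 and HES4, where 15.2% of all tested rows did so. None lay wholly below, where 14.5% of tested rows did. NOTCH2 and HES4 were chosen for this difference and several rows share a gene, so nothing is read from these counts. WT replicate 3 was the lowest library in 6 of the 8 rows, where it was so in 34.8% of tested rows.

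**Figure D3:**
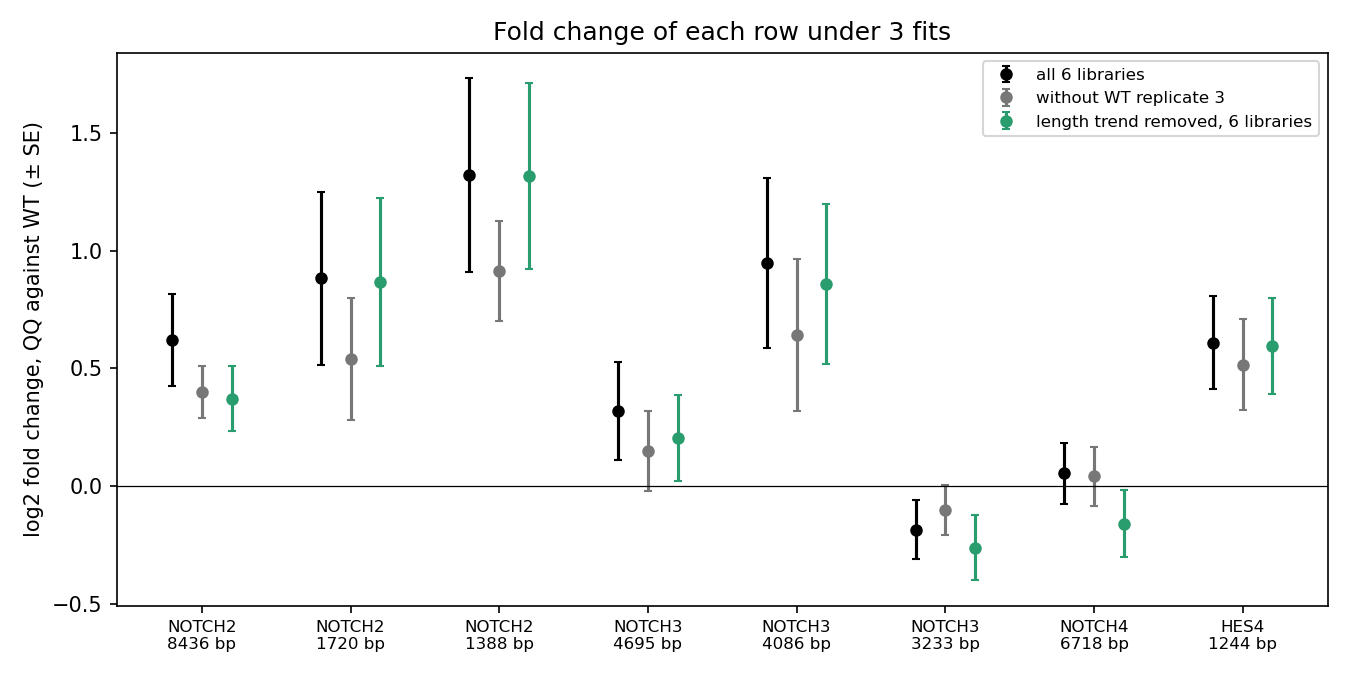
Log2 fold change of QQ against WT embryos with its standard error for the 8 rows, with all 6 libraries (black), without WT replicate 3 (grey) and with the length trend removed (green). Without WT replicate 3 the NOTCH2 rows, the 4695 bp and 4086 bp NOTCH3 rows and HES4 have smaller values. HES4 lies between 0.52 and 0.61, and NOTCH4 lies near 0 with a sign that changes.

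The order of the receptor levels, which did not enter the choice of rows, depended on the row that stood for NOTCH3. The longest rows gave NOTCH2 at 24.0 ± 7.55, NOTCH4 at 4.57 ± 0.408 and NOTCH3 at 3.73 ± 0.912 RPKM (SD, n = 6 libraries). NOTCH2 lay above NOTCH3 by 2.65 ± 0.212 and above NOTCH4 by 2.32 ± 0.440 (log2 of RPKM, mean and SD) in 6 of 6 libraries, and NOTCH3 below NOTCH4 by 0.329 ± 0.273 in 6 of 6. Each of the 3 pairs had p = 0.03125 in an exact two-sided paired permutation test, also after Benjamini-Hochberg adjustment, the smallest p that 6 libraries allow. The longest NOTCH3 row was, however, covered over 25.9 to 27.7% of its length only.

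With the best covered row of each receptor, chosen after seeing the coverage, NOTCH3 stood at 21.6 ± 1.88 RPKM, beside NOTCH2. The difference between NOTCH2 and NOTCH3 was then 0.083 ± 0.601 (log2), with NOTCH2 higher in 5 of 6 libraries (exact permutation adjusted p = 0.719), in WT replicate 1 by less than rounding. In WT replicate 3 the order was turned, with NOTCH2 at 11.8 and NOTCH3 at 24.0 RPKM. The 2 receptors were almost level in WT replicates 1 and 2. In QQ replicates 1 to 3 NOTCH2 stood at 26.4, 30.8 and 32.1 RPKM, against 20.0, 20.0 and 22.8 RPKM for NOTCH3. The permutation tests pool both genotypes, although NOTCH2 was chosen for its difference between them. NOTCH3 then lay above NOTCH4 by 2.24 ± 0.165 (log2) in 6 of 6 libraries (exact permutation adjusted p = 0.0469). The comparison of NOTCH2 with NOTCH4 was unchanged by construction, because both choices take the same row for each of these receptors. HES4 had a mean of 6.57 RPKM, far under its relative HES1, the most abundant of the HES and HEY targets, at 79.4 ± 27.2 RPKM for WT and 83.1 ± 18.3 RPKM for QQ embryos (SD, n = 3 each).

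Other genes of the pathway gave no call. Of 67 genes listed around the members by role, 58 had a row and 54 were tested, and edgeR called 0 higher and 0 lower (smallest adjusted p 0.233). DESeq2 and limma also called 0. At an unadjusted p under 0.05 there were 12 genes, 8 higher and 4 lower, which is 22.2% against the 20.3% of all tested rows. Values were on average higher in QQ embryos for 30 genes and lower for 24, and for 23 and 31 with the length trend removed. The median log2 fold change was 0.04 over the list and -0.0027 over all tested rows. Groups did not overlap in 14 of the 54 genes, or 25.9%, where 29.6% of all tested rows did so. WT replicate 3 was the lowest library in 19 of the 54.

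Among ligands, and the glycosyltransferases and ligand ubiquitin ligases listed beside them, no gene was called. Log2 fold changes of the 5 tested enzymes ran from -0.05 to 0.74. Among 6 tested ligands the log2 fold changes ran from -0.48 to 0.25, and none had an unadjusted p under 0.05. The most abundant, JAG1, averaged 20.7 ± 3.59 RPKM among WT and 24.9 ± 0.880 RPKM among QQ embryos. Its log2 fold change was 0.18 ± 0.13, 0.06 without WT replicate 3 and 0.01 with the length trend removed. DLK1, a Delta-like protein that lacks the receptor-binding domain of the canonical ligands, held 6 to 20 reads per library (-0.48 ± 0.42). MIB1, the ubiquitin ligase that drives ligand endocytosis, had the largest value of its group. It averaged 25.6 ± 11.3 RPKM among WT and 45.5 ± 4.26 RPKM among QQ embryos (0.74 ± 0.27, and 0.44 without WT replicate 3). POGLUT1, which glucosylates EGF repeats of Notch, had 0.67 ± 0.35, and 0.35 without WT replicate 3.

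Gene groups inside the receiving cell were mixed. In the cleavage group, gamma-secretase subunits had lower values in QQ embryos for PSENEN (61.7 ± 11.8 RPKM for WT, 44.9 ± 3.10 for QQ, log2 fold change -0.56 ± 0.19) and APH1A (99.6 ± 2.66 and 86.3 ± 4.23 RPKM, -0.30 ± 0.11). Without WT replicate 3 these were -0.38 and -0.26, and with the length trend removed -0.72 and -0.33. In the nuclear complex the coactivator MAML2 had a log2 fold change of 0.90 ± 0.37 and the acetyltransferase EP300 of 0.99 ± 0.36. Without WT replicate 3 these were 0.54 and 0.68, and with the length trend removed 0.90 and 0.73. The groups overlapped for EP300 and not for MAML2. SNW1, the most abundant of that group, had -0.08 ± 0.10.

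Among corepressors, NCOR1 averaged 17.0 ± 2.21 RPKM for WT and 24.5 ± 3.05 RPKM for QQ embryos. Its log2 fold change was 0.43 ± 0.12, 0.35 without WT replicate 3 and 0.25 with the length trend removed. TLE3, of the Groucho family, had 0.54 ± 0.22 (0.44 without WT replicate 3), and HDAC2, a histone deacetylase and the most abundant of the group, -0.11 ± 0.11. Among negative regulators, NLE1, a protein that also acts in ribosome assembly, averaged 44.4 ± 2.87 RPKM for WT and 36.3 ± 1.77 RPKM for QQ embryos (-0.39 ± 0.11), and a 325 bp row of ITCH, a ubiquitin ligase, had 0.83 ± 0.32 (0.56 without WT replicate 3). Of 7 other HES and HEY targets tested, 2 were on average higher and 5 lower in QQ embryos, and 5 higher and 2 lower without WT replicate 3, so their directions were not fixed. WT replicate 3 was the lowest library in 0 of these 7. HES1 had -0.03 ± 0.25 and HES6 -0.23 ± 0.20, against 0.0046 and 0.01 without WT replicate 3, and HEY2 had 0.21 ± 0.15. Whether HES4 differs from these targets was not tested.

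**Figure D4:**
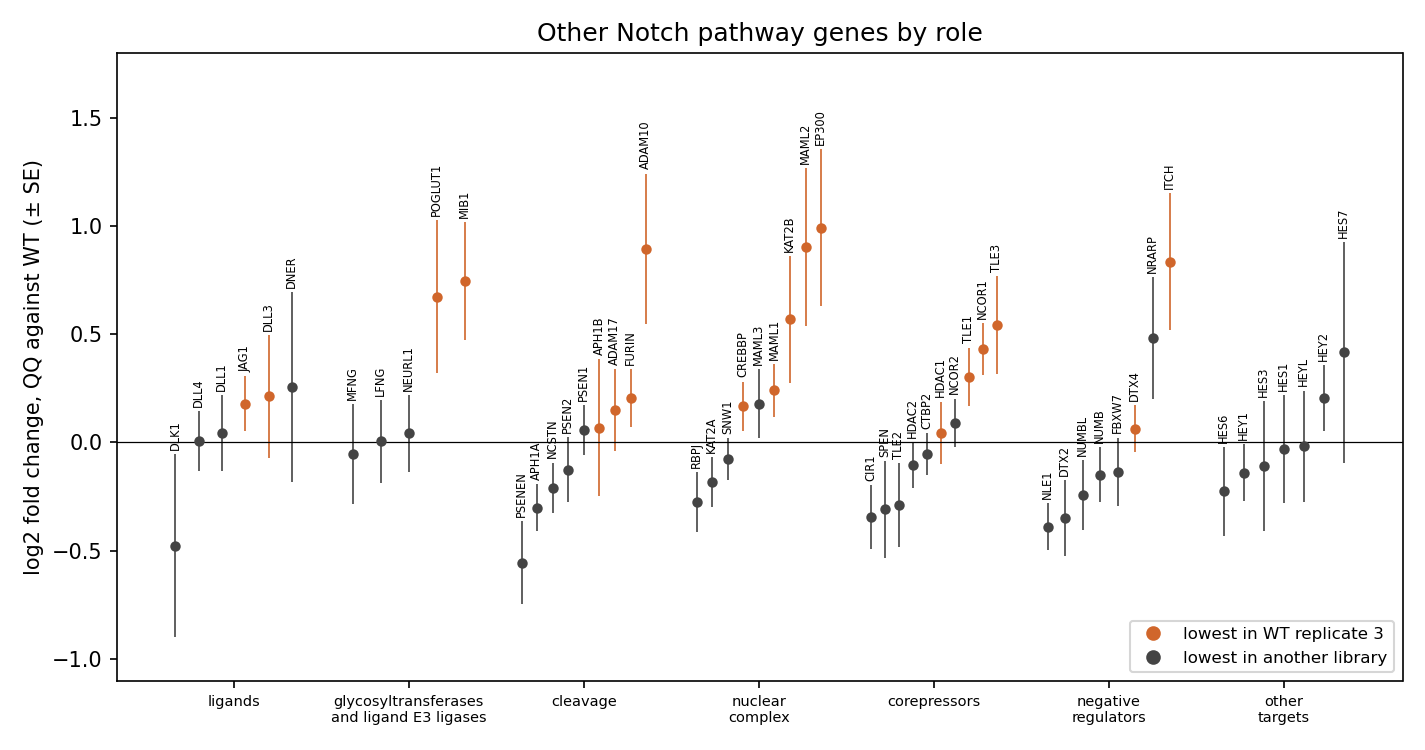
Log2 fold change of QQ against WT embryos with its standard error for the 54 tested genes of the Notch pathway, grouped by role and sorted by value; orange marks genes whose lowest library is WT replicate 3. Orange marks 19 of the 54 genes, and none in the group of other targets.

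Rows with a profile like that of NOTCH2 were many. Over the 6 libraries, 10.8% of 6318 rows with a symbol and at least 1 RPKM had a Pearson correlation above 0.9 with its longest row (log2 TMM-scaled counts). The closest were ZCCHC14, CPD, KMT2A, CHFR and USP53, from 0.999 down to 0.995, all of them lowest in WT replicate 3 by RPKM. Without that library 2.96% were above 0.9, and the closest were ZCCHC14, KLHL35, USP53, ROBO1 and CLDN12 (0.999 to 0.992). KMT2A is a histone methyltransferase and ROBO1 an axon guidance receptor. For HES4 the closest over 6 libraries were NOX4, PDS5B, SP6, RDH11 and PPTC7 (0.995 to 0.984), and over 5 libraries ENTPD5, ADAMTS19, LRP6, UBE4A and SOCS5 (0.999 to 0.994). The lists with and without WT replicate 3 shared ZCCHC14 and USP53 for NOTCH2 and no gene for HES4.

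Markers of cell types that use these receptors were compared beside them, as levels summed over each list. The sums are in RPKM without TMM scaling, whose factor was lowest in WT replicate 3 (0.933) and highest in QQ replicate 2 (1.06). Ranges of the sums that do not overlap are therefore not read as a difference, and scaled sums were not tested. Of 10 endothelial markers 8 had a row, and their summed level was 63.8 to 67.2 RPKM for WT and 67.6 to 70.9 RPKM for QQ embryos. Of 8 mural and smooth muscle markers 8 had a row, at 349 to 431 RPKM for WT and 324 to 458 RPKM for QQ embryos. Only 4 of 8 neural progenitor markers had a row (64.3 to 77.3 RPKM in WT, 61.0 to 82.0 RPKM in QQ), and 8 of 11 presomitic and somite markers (67.0 to 74.4 and 68.7 to 87.3 RPKM). Among WT libraries, the sum of replicate 3 was the lowest in the neural list and the highest in the endothelial and mural lists. Single markers did not all follow the sums: WT replicate 3 was the lowest of the 6 libraries for 4 endothelial, 2 mural and 1 neural marker. The endothelial sum rests largely on EGFL7, at 30.2 to 40.1 RPKM over the 6 libraries.

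Within these lists single markers differed in sign. SOX2, of neural progenitors, averaged 31.2 ± 4.02 RPKM for WT and 33.1 ± 2.85 RPKM for QQ embryos, and PDGFRB, of mural cells, 7.96 ± 0.857 and 7.79 ± 0.326 RPKM (SD, n = 3 each). Their TMM-scaled log2 fold changes were -0.0074 ± 0.13 and -0.13 ± 0.14 (SE), so SOX2 was not higher in QQ embryos after scaling. KDR, of endothelium, had a low level, at 0.312 ± 0.124 and 0.554 ± 0.142 RPKM (log2 fold change 0.74 ± 0.33). Of 7 tested endothelial markers 5 were on average higher and 2 lower in QQ embryos (median log2 fold change 0.04), and of 8 mural and smooth muscle markers 1 was higher, RGS5 (0.43 ± 0.21, named after its value was seen), and 7 lower (median -0.17). Among markers of blood and of extra-embryonic tissue, the erythroid list summed to 37.6 to 85.8 RPKM for WT and 15.5 to 54.4 RPKM for QQ embryos, and the extra-embryonic list to 13.8 to 196 and 19.2 to 443 RPKM, with WT replicate 3 the highest WT library. Of 6 tested erythroid markers 0 were on average higher and 6 lower in QQ embryos (median log2 fold change -0.64). Of 4 tested extra-embryonic markers 3 were higher and 1 lower (median 0.79). Libraries listed at 0 occurred for TIE1, STMN2, ALAS2, HBB and CYP19A1. No marker passed edgeR's test. The part of cell makeup in the NOTCH2 and HES4 values was not tested.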

How the data were processed

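TruSeq libraries of total RNA from 3 WT and 3 QQ embryos were sequenced, per the labels' protocols, and reads were placed on Sscrofa10.2, per the submitters' processing notes. Not given in the sources used here: the aligner, the counting program and any use of strand. Per the file headers, the authors deposited 3 values per library and Ensembl transcript: a count of uniquely mapped reads, a covered percent and an RPKM value. A dash was read as 0. The deposited RPKM equals count over length and library total (largest relative gap 1.29e-07). Reads shared between rows of a gene or near-identical copies may be missing from unique counts.

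Counts were tested with edgeR 4.0.16 (R 4.3.3): TMM scaling (factors 0.933 to 1.06), filterByExpr (at least 10 counts, total at least 15; 13957 rows kept) and quasi-likelihood fits of QQ against WT without covariates. The standard error is the log2 fold change divided by the square root of F. Groups were called non-overlapping on TMM-scaled log2 counts, and the lowest library was taken on the same scale. Symbols came from the deposited pig protein accession (7181 rows), the KEGG match (2287) or hand-written description phrases (64), through gene tables of Sscrofa11.1. Accession and KEGG gave the same symbol in 98.9% of 2792 rows with both. A gene with several rows was given by the row with most reads.

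Named pathway genes were the 2 with the smallest unadjusted p and the most abundant of each role; named similar rows were the 5 with the highest correlation. The members and lists were chosen with earlier results of these data known. Alternatives were DESeq2 1.42.0 (with and without the filter), limma 3.58.1 on log2(RPKM + 0.5), other filters and scalings, removal of the length trend (loess, span 0.4) and leaving out each library. The main edgeR fit, edgeR with the length trend removed, DESeq2 with the filter and limma were tested on simulated counts. That simulation held no outlying library and no length trend, and the other settings were not tested in this way. No 2 libraries agreed within sampling noise (chi-square per degree of freedom at least 8.04). Receptor levels were compared with scipy 1.17.1 and figures drawn with matplotlib 3.10.9. No sequence is shown, since none was in the tables used here.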

Additional observations from a re-analysis of the deposited data

How the results depend on the processing

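The longest NOTCH2 row kept a positive log2 fold change in all 18 alternatives run, from 0.37 (length trend removed) to 0.81 (without WT replicate 1), and HES4 in all 18, from 0.52 to 0.72. These settings reuse the same 6 libraries, and both genes were chosen for this difference. The unchanged sign therefore adds no support to it. The 1388 bp and 1720 bp NOTCH2 rows and the 4695 bp NOTCH3 row were positive in 18 of 18, the 4086 bp NOTCH3 row in 17 of 17, and the 3233 bp NOTCH3 row in 0 of 18. Ranges were 0.91 to 1.61, 0.54 to 1.21, 0.15 to 0.52, 0.31 to 1.34 and -0.28 to -0.08 in that order, and the 4086 bp row was not tested at a mean of at least 2 RPKM. NOTCH4 turned negative with the length trend removed (-0.16) and without WT replicate 2 (-0.0027), with a range of -0.0027 to 0.12 when single libraries were left out; the cause was not tested. Rows called over the whole table were 111 with DESeq2 (103 higher and 8 lower), 122 with DESeq2 without the filter (115 and 7, added after seeing the data) and from 0 to 3 when single libraries were left out: 1 without WT replicate 3 and 3 without QQ replicate 1. The other settings run with 6 libraries, none of them DESeq2, called 0, among them an adjusted p under 0.1. Rows at an unadjusted p under 0.05 ranged from 1095 without QQ replicate 3 to 3652 without WT replicate 2, with 1220 without QQ replicate 2 and 1947 without WT replicate 3. Pathway genes called were 0 in every setting, with 4 to 14 genes at an unadjusted p under 0.05. For receptor levels, NOTCH2 against NOTCH3 was 1.296 (log2) with all rows of a receptor pooled (NOTCH2 higher in 6 of 6 libraries, exact permutation adjusted p = 0.03125), 0.083 with the best covered rows and 0.43 with all rows pooled per covered kilobase, both chosen after seeing the data (exact permutation adjusted p = 0.719 and 0.125). NOTCH3 against NOTCH4 turned to 0.70 with all rows of a receptor pooled, to 2.24 with the best covered rows and to 1.82 pooled per covered kilobase; the settings differ only in the rows and lengths used. Leaving out 1 library gave 2.61 to 2.71 for NOTCH2 against NOTCH3, 2.24 to 2.49 for NOTCH2 against NOTCH4 and -0.38 to -0.23 for NOTCH3 against NOTCH4. With 5 libraries the exact test cannot go below 0.0625. Same-numbered WT and QQ libraries had correlations of -0.18, 0.20 and -0.05 in their deviations from the group means. Pairs with unlike numbers had -0.15 to 0.20. With 3 libraries per group these values cannot show whether replicate numbers pair the samples. With the replicate number as a block, 0 rows were called, with 2291 at an unadjusted p under 0.05, and 0 pathway genes; the longest NOTCH2 row had 0.66 and HES4 0.60. The 4086 bp NOTCH3 row, with 8 to 34 reads, is the one whose depth limits it most.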

Other observations

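The deposited KEGG column files 19 rows under Notch as their first match, and 7 of these are receptor rows. The other 12 are described as other proteins, among them crumbs, HEG and multiple EGF-like domain proteins, and 9 of them were tested. The most abundant is CRB2, a crumbs family protein of apical membranes, at 30.5, 28.0 and 23.4 RPKM in WT replicates 1 to 3 and 30.9, 37.0 and 40.5 RPKM in QQ replicates 1 to 3 (log2 fold change 0.31 ± 0.12, edgeR adjusted p = 0.233). Its WT and QQ libraries did not overlap, though WT replicate 1 and QQ replicate 1 were close. A pair of rows described as HEG1, a membrane protein of heart and vessel development, had 73, 77 and 24 reads and 57, 67 and 17 reads in WT replicates 1 to 3, against 79, 122 and 116 reads and 67, 88 and 72 reads in QQ replicates 1 to 3. On scaled counts the groups overlapped in both HEG1 rows. Their log2 fold changes were 0.79 ± 0.38 and 0.61 ± 0.40 (edgeR adjusted p = 0.265 and 0.381). WT replicate 3 was the lowest library in 5 of the 9 tested rows.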
